A study of Mus musculus with 25 samples.

Results

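Expression of the BMP and TGF-beta signalling pathway was examined in dissected mammillary neuroepithelium, the wall of the caudal hypothalamus, at E10.5 in the mouse. The 38 genes were chosen by name and comprised ligands, the receptors that bind them, the Smad proteins that carry the signal, extracellular and membrane antagonists, and transcriptional targets. Of the 38, 37 had a transcript cluster (the set of probes that reads 1 transcript) of their own among 18820 named genes. Bmp7 had a pair of such clusters, and the brighter one was used. The only cluster of Tgfbr2 also carried a second gene's symbol, so Tgfbr2 was not analysed. KO embryos were homozygous for a floxed Lhx5 allele whose exons had not been removed by Cre and which is described as a hypomorph, and they were set against wild-type (WT) embryos of the same age and strain (C57BL/6). In all, 13 KO and 12 WT samples were hybridised, 1 array each, and their labels call them biological replicates. Values are log2 RMA values (robust multiarray average, a background-corrected and normalised probe intensity), so a difference of 1 is a doubling. Levels of different genes are not compared, since each cluster has its own probes.

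Bone morphogenetic proteins (BMPs) and the TGF-betas, activins and growth differentiation factors are secreted dimers that bring together type I and type II receptor kinases. The type I receptor then phosphorylates Smad1, Smad5 and Smad9 (BMP branch) or Smad2 and Smad3 (TGF-beta and activin branch), which enter the nucleus with Smad4 and regulate genes such as the Id and Msx families. In the early neural tube BMPs from the roof plate and surface ectoderm oppose ventral Sonic hedgehog, and BMP7 is made by the prechordal mesoderm beneath the forming hypothalamus.

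The mean of KO replicates 1 to 10 equalled the mean of KO replicates 11 to 13 for every one of the 37 genes, to within 3e-05, as it did on nearly every row of the table (median absolute difference 1.33e-06). Hence the KO minus WT difference of each gene equals that between 3 arrays, KO replicates 11 to 13, and the 12 WT arrays. Equal means do not show which KO set, if either, was shifted. The assumption made here, not tested, is that KO replicates 1 to 10 add no evidence on the direction of the difference. The fit therefore carried a term for KO replicates 1 to 10, and a gene was called at a Benjamini-Hochberg adjusted p below 0.05 over all 28940 tested clusters. Array medians lay between 4.64 and 4.76. Lhx5 itself, the targeted gene, had a difference of -0.04 ± 0.17 (SE), so the transcript level did not tell the genotypes apart. All 11 markers of mammillary and hypothalamic neuroepithelium were above the median level of all clusters (4.69), with WT means between 5.89 and 11.02. Their average was 7.46 on WT replicate 10 and 7.80 to 8.02 on the other 11 WT arrays, so that this array stood apart from its group.

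With that term, none of the 37 genes was called (limma, lowest adjusted p = 0.274), and 7 clusters were called in the whole table (percent called 0.0242). At an unadjusted p below 0.05, 3 of the 37 genes passed (8.11%), namely Bmp6, Bmp7 and Id4, against 10.3% of all clusters. Genotype alone, which counts all 13 KO arrays as evidence of direction, called 6 of 37 (16.2%), against 16.7% of all clusters. Thus by neither count did the pathway genes stand above the rest of the table. The median difference over the 37 genes was -0.05, against 0.01 over all clusters, with 11 genes above 0 and 26 below, while 51.8% of all clusters were above 0. For none of them did all of KO replicates 11 to 13 lie above every WT array, which 0.536% of all clusters did, or below every WT array, which 0.619% did.

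**Figure D1:**
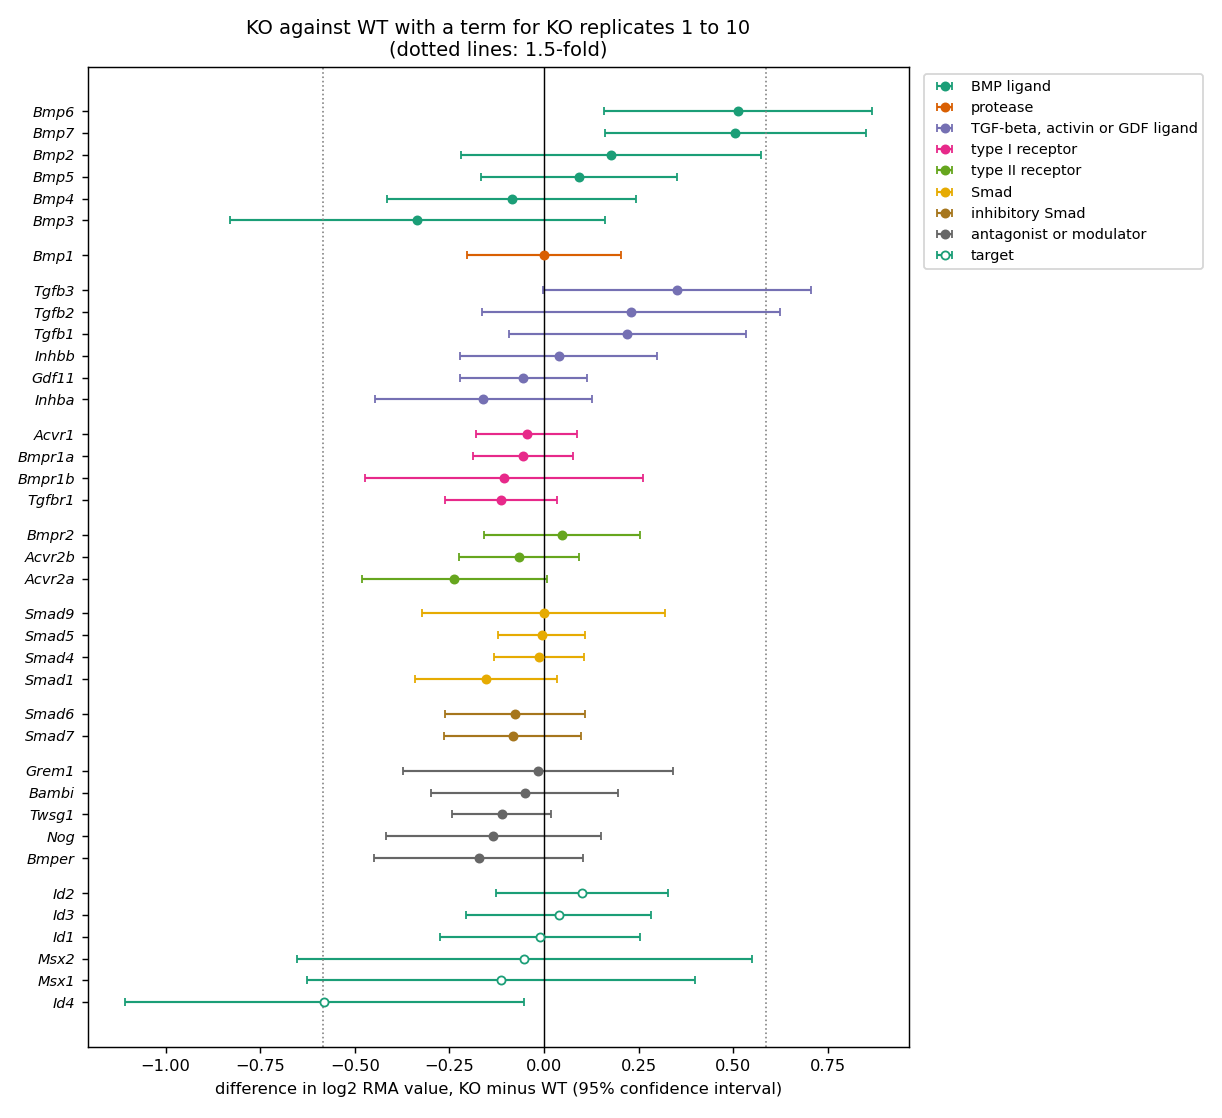
Difference in log2 RMA value between KO and WT for each of 37 BMP and TGF-beta genes, fitted with a term for KO replicates 1 to 10 (points; bars are 95% confidence intervals; dotted lines mark 1.5-fold). The intervals of Bmp6 and Bmp7 lie above 0, that of Id4 lies below 0, and those of all 13 receptors and Smads cross 0 and stay inside 1.5-fold.

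The largest positive differences were those of BMP ligands. Bmp6, a BMP of the same subgroup as Bmp5 and Bmp7 (chromosome 13, GRCm38.p6), read 6.46, 7.09 and 6.97 on KO replicates 11 to 13, between 6.61 and 7.20 (median 6.81) on KO replicates 1 to 10, and between 5.80 and 6.96 (median 6.18) on the WT arrays. Of KO replicates 11 to 13, 2 were above every WT array, while KO replicate 11 lay among them. The difference was 0.51 ± 0.17 (SE), or 1.43-fold (95% confidence interval 1.12 to 1.82), with p = 0.00625, an adjusted p of 0.274 in limma and an exact permutation p of 0.0308, two-sided, over the 455 splits of these arrays into 3 and 12. Leaving out KO replicate 12 brought the difference to 0.39 with an exact permutation p of 0.176, and leaving out KO replicate 13 brought the exact permutation p to 0.143.

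Bmp7, the BMP of the prechordal mesoderm, was measured on chromosome 2 and read 8.51, 8.64 and 8.76 on KO replicates 11 to 13. On KO replicates 1 to 10 it ran from 8.22 to 8.93 (median 8.59), and on the WT arrays from 7.67 to 8.88 (median 8.03). Only 1 of the 12 WT arrays, WT replicate 10, was above the lowest of KO replicates 11 to 13, and it was above all of them. Without that array the difference was 0.57 (adjusted p = 0.119 in limma, exact permutation p = 0.00275). Leaving it out separates the remaining arrays fully, and this exact p is the smallest that their 364 splits allow. It is therefore not read as added evidence. The difference was 0.51 ± 0.17 (SE), or 1.42-fold (95% confidence interval 1.12 to 1.80), with p = 0.00576, an adjusted p of 0.274 in limma and an exact permutation p of 0.0286. Without KO replicate 12 the exact permutation p was 0.0659, and without KO replicate 13 it was 0.0989. A second, dimmer Bmp7 cluster had a difference of -0.05 with an adjusted p of 0.912, so the higher reading was not shared by both clusters of the gene.

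The other 4 BMP ligands gave differences between -0.34 and 0.18. Bmp4, the ligand most used as a dorsal signal, differed by -0.09 ± 0.16 (SE), Bmp5 by 0.09 ± 0.13, and Bmp2 and Bmp3, both dim (below the median level of all clusters), by 0.18 ± 0.19 and -0.34 ± 0.24. Their adjusted p ran from 0.676 to 0.898 in limma, and their intervals still admit a change of 1.5-fold in Bmp3, with a lower bound of -0.83. Bmp1, which despite its name is not a ligand but a metalloprotease that cuts procollagen and the BMP antagonist chordin, read 8.91, 8.94 and 8.74 on KO replicates 11 to 13 and 8.52 to 9.13 (median 8.88) on the WT arrays. Its difference was -0.001 ± 0.099 (SE).

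Among the TGF-beta, activin and GDF ligands Tgfb3 had the smallest p. It read 6.74, 6.78 and 6.89 on KO replicates 11 to 13, from 6.42 to 7.38 (median 6.77) on KO replicates 1 to 10, and from 5.95 to 6.89 (median 6.49) on the WT arrays. All of KO replicates 11 to 13 were above the WT median, and 2 WT arrays were above the lowest of them. The difference was 0.35 ± 0.17 (SE, p = 0.0521, adjusted p = 0.488, exact permutation p = 0.0505), and genotype alone called the gene (adjusted p = 0.0225 in limma). Tgfb1 and Tgfb2 had differences of the same sign, 0.22 ± 0.15 and 0.23 ± 0.19, neither called by either fit. Both rested in part on KO replicate 11, without which they were 0.11 and 0.08. Gdf11, an activin-like regulator of progenitor timing, and the activin subunits Inhba and Inhbb differed by -0.05, -0.16 and 0.04. The 12 ligands had a median difference of 0.13, with 8 above 0, and 3 of them were called by genotype alone, all in the higher direction, against 9.68% of all clusters.

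**Figure D2:**
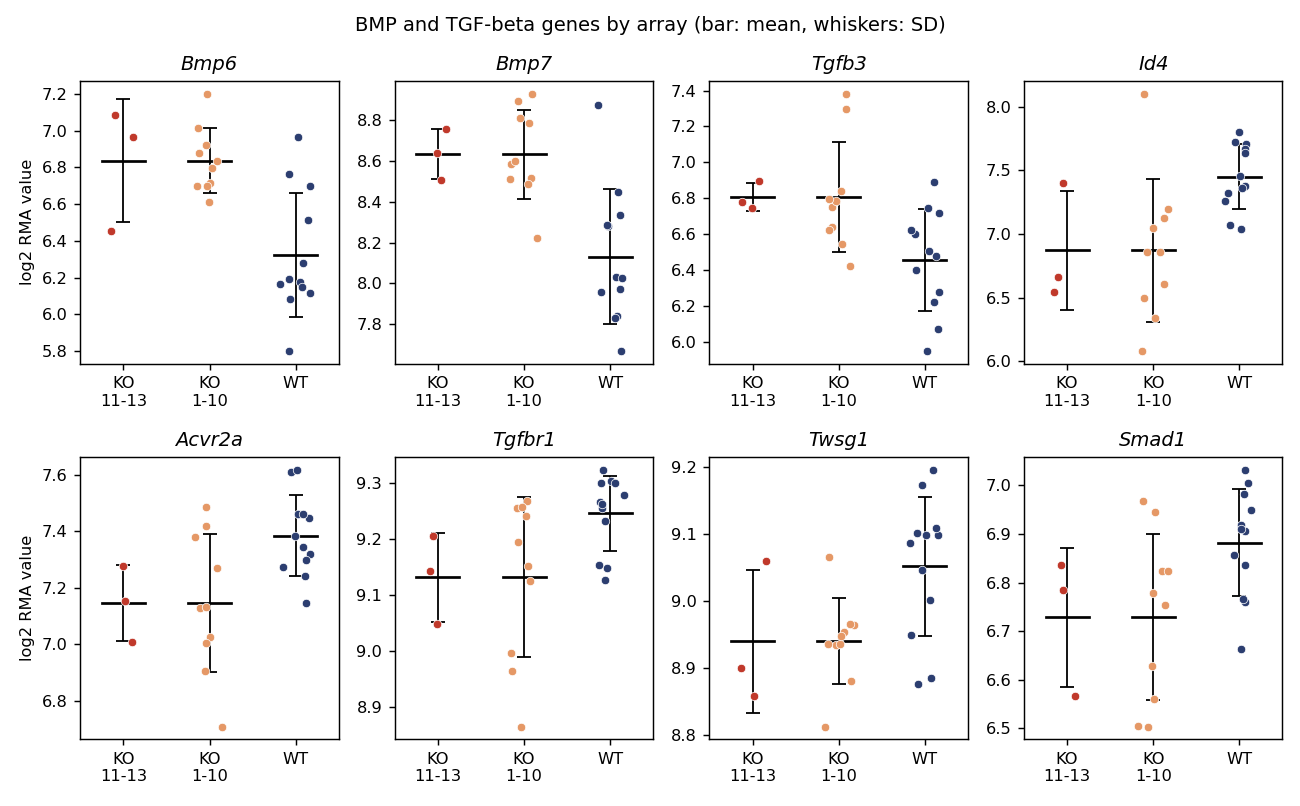
Log2 RMA value of 8 genes on every array (points), in KO replicates 11 to 13, KO replicates 1 to 10 and WT from left to right, with the mean (bar) and SD (whiskers). Bmp6, Bmp7 and Tgfb3 have higher KO means, and Id4, Acvr2a, Tgfbr1, Twsg1 and Smad1 have lower ones, while every gene has at least 1 array of KO replicates 11 to 13 inside the WT range.

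The receptors and Smads differed little between KO and WT. All 13 had a 95% confidence interval inside 1.5-fold in either direction, as did 29 of the 37 genes and 92.1% of all clusters, and 12 of the 13 had a difference below 0 (median -0.07). Tgfbr1, the type I receptor of the TGF-betas, read 9.14, 9.05 and 9.20 on KO replicates 11 to 13, from 8.87 to 9.27 (median 9.17) on KO replicates 1 to 10, and from 9.13 to 9.32 (median 9.26) on the WT arrays. All of KO replicates 11 to 13 were below the WT median, 1 of them below every WT array. The difference was small, -0.11 ± 0.07 (SE), with an exact permutation p of 0.0176 but p = 0.123 and an adjusted p of 0.613 in limma, and without KO replicate 12 the exact permutation p was 0.165. The BMP type I receptors Bmpr1a, Bmpr1b and Acvr1 differed by -0.06 ± 0.06, -0.11 ± 0.18 and -0.05 ± 0.07 (SE).

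Of the type II receptors, Acvr2a, which binds activins and several BMPs, read 7.28, 7.15 and 7.01 on KO replicates 11 to 13. It ran from 6.71 to 7.48 (median 7.13) on KO replicates 1 to 10 and from 7.15 to 7.62 (median 7.36) on the WT arrays, so that all of KO replicates 11 to 13 were below the WT median. The difference was -0.24 ± 0.12 (SE), or 1.18-fold lower, with p = 0.0558, an adjusted p of 0.497 in limma and an exact permutation p of 0.0242. Without KO replicate 12 the exact permutation p was 0.0549, and without KO replicate 13 it was 0.154. Genotype alone called it (adjusted p = 0.0245 in limma). The related Acvr2b differed by -0.07 ± 0.08 and Bmpr2, the BMP type II receptor, by 0.05 ± 0.10 (SE).

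Smad1, a BMP-branch Smad, had the smallest p of the Smads. Its values were 6.84, 6.78 and 6.57 on KO replicates 11 to 13, 6.50 to 6.97 (median 6.77) on KO replicates 1 to 10, and 6.66 to 7.03 (median 6.91) on the WT arrays. All of KO replicates 11 to 13 were below the WT median, and the difference was -0.15 ± 0.09 (SE, adjusted p = 0.585 in limma, exact permutation p = 0.0637). Its partner Smad5 differed by -0.01 ± 0.06 and the shared Smad4 by -0.01 ± 0.06 (SE), with 95% confidence intervals of -0.12 to 0.11 and -0.13 to 0.11. Smad9 differed by -0.002 ± 0.156.

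The inhibitory Smads, which are induced by the pathway and shut its receptors off, were near their WT levels. Smad7, which blocks both branches, read 6.45, 6.58 and 6.48 on KO replicates 11 to 13, 6.22 to 6.75 (median 6.51) on KO replicates 1 to 10, and 6.43 to 6.92 (median 6.56) on the WT arrays, and all of KO replicates 11 to 13 lay inside the WT range. The difference was -0.08 ± 0.09 (SE, adjusted p = 0.802 in limma). Smad6, specific to the BMP branch, differed by -0.08 ± 0.09 (adjusted p = 0.823).

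All 5 antagonists and modulators had differences below 0, from -0.17 to -0.02, and none was called. Twsg1, a secreted protein that binds BMPs together with chordin, had the smallest p. It read 8.86, 9.06 and 8.90 on KO replicates 11 to 13, 8.81 to 9.07 (median 8.94) on KO replicates 1 to 10, and 8.88 to 9.20 (median 9.09) on the WT arrays. The difference was -0.11 ± 0.06 (SE, p = 0.0882, adjusted p = 0.562, exact permutation p = 0.114), and genotype alone called it with an adjusted p of 0.0439 in limma. Noggin (Nog), gremlin (Grem1) and Bmper, which bind BMPs outside the cell, differed by -0.13 ± 0.14, -0.02 ± 0.17 and -0.17 ± 0.14, and Bambi, a membrane pseudoreceptor, by -0.05 ± 0.12 (SE).

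Among the 6 targets, Id4 had the smallest p. The Id proteins bind basic helix-loop-helix factors and hold progenitors back from differentiation. Id4 read 7.41, 6.55 and 6.66 on KO replicates 11 to 13, from 6.08 to 8.10 (median 6.86) on KO replicates 1 to 10, and from 7.04 to 7.80 (median 7.42) on the WT arrays. Of KO replicates 11 to 13, 2 were below every WT array and KO replicate 11 was above 6 of the 12. The difference was -0.58 ± 0.26 (SE), or 0.669-fold the WT level (95% confidence interval 0.464 to 0.963), with p = 0.032, an adjusted p of 0.428 in limma and an exact permutation p of 0.0154. Without KO replicate 12 it was -0.42, with p = 0.18 in limma and an exact permutation p of 0.0989, and without KO replicate 13 it was -0.48, with an exact permutation p of 0.0769. Genotype alone called Id4 (adjusted p = 0.0122 in limma).

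Id1, the target most widely used as a readout of BMP signalling, differed by -0.01 ± 0.13, Id2 by 0.10 ± 0.11 and Id3 by 0.04 ± 0.12 (SE). Their 95% confidence intervals lay between -0.28 and 0.33, inside 1.5-fold. The homeobox targets Msx1 and Msx2 differed by -0.11 ± 0.25 and -0.05 ± 0.29 with intervals of -0.63 to 0.40 and -0.65 to 0.55, which leave a change of 1.5-fold possible. Across the exact tests, 5 of the 37 genes (13.5%) had a p below 0.05 (Bmp6, Bmp7, Tgfbr1, Acvr2a and Id4), against 10.2% of all clusters, and no cluster passed after adjustment (lowest adjusted p = 0.307, smallest unadjusted p that these arrays allow 0.0022). That count of 5 rests on KO replicates 12 and 13. Without KO replicate 12 it was 1 (Twsg1, none of the 5), and without KO replicate 13 it was 2 (Tgfb1 and Tgfbr1). Without KO replicate 11 the 5 kept an exact permutation p below 0.05 (0.011 to 0.044), and Smad1 joined them (0.044). With 2 KO arrays the smallest p that the splits allow is 0.011, which makes a p below 0.05 harder to reach for any cluster. The share of all clusters that passed with an array left out is not given here, so these counts are not compared with it.

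The proximal promoters of the targets are shown because Id4 and Id2, and Msx1 and Msx2, are close relatives whose differences or motifs were not alike. Sequences are from RefSeq (GRCm38.p6), from 250 bases before to 50 after the gene start, 5′ to 3′ on the strand of the gene, and 28 of the 38 genes had one. Capitals mark GGCGCC, a GC-rich element to which BMP Smads can bind, or TAATTA, the core recognised by LIM-homeodomain proteins such as LHX5. Both motifs read the same on either strand and they do not overlap each other. The windows are Id4 (chr13:48260866-48261165, plus strand), Id2 (chr12:25096043-25096342, minus strand), Msx1 (chr5:37824536-37824835, minus strand), Msx2 (chr13:53472731-53473030, minus strand) and Bmp6 (chr13:38345466-38345765, plus strand), the last for the ligand with the largest difference.
Id4: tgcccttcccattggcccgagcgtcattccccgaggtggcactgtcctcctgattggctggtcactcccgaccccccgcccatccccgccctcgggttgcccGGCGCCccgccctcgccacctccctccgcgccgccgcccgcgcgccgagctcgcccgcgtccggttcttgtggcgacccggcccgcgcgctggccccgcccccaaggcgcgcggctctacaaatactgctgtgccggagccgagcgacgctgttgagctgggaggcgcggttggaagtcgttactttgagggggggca
Id2: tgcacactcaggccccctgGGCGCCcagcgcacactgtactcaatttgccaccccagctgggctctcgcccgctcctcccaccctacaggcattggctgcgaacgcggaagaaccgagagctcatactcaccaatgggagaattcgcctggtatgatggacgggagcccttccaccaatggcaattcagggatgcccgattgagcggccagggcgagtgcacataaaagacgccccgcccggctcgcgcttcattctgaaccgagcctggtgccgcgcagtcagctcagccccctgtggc
Msx1: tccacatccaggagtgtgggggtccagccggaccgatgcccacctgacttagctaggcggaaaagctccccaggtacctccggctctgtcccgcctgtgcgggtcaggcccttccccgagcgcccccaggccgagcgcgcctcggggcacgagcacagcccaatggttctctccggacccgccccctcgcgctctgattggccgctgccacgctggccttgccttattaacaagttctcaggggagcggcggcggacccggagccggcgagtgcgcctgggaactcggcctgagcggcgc
Msx2: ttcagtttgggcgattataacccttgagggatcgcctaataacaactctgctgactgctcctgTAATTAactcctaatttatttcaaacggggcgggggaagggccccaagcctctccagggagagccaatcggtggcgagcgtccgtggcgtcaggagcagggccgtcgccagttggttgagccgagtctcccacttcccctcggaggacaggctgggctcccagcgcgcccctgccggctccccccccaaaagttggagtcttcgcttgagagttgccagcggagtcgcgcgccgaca
Bmp6: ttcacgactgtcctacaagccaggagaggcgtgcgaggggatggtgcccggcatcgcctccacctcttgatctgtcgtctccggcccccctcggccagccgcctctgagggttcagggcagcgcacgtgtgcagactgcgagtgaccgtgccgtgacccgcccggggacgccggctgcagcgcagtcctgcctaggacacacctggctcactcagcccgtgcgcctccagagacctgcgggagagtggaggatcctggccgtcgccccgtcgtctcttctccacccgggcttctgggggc
Id4 and Id2 each hold 1 GGCGCC, and Msx2 holds 1 TAATTA where Msx1 holds none. The differences of Id4 and Id2 were -0.58 ± 0.26 and 0.10 ± 0.11 (SE). Neither gene was called (adjusted p = 0.428 and 0.813 in limma), and the interval of Id2 crossed 0, so opposite signs are not established. A link between the motifs and the differences was not tested. GGCGCC occurred in 11.9% of all 32851 promoter windows and in 9 of the 33 windows of these genes. Those 9 windows belong to Bmpr1a, Bmpr2, Grem1, Id2, Id4, Smad5, Smad9 and Tgfbr1, as a gene can have more than 1 window. TAATTA occurred in 5.29% of all windows and, of these genes, in Msx2 alone. The windows of these genes were richer in G and C than the rest (median 66.3% against 52.7%), so the share with a GC-rich motif is not compared further. A match is a run of letters and not a measured binding site.

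The spread between arrays of one set differed by role. Among KO replicates 1 to 10 the median SD was 0.27 for the 12 ligands, 0.37 for the 6 targets and 0.15 for the 13 receptors and Smads. Among the WT arrays it was 0.24 for the ligands, 0.23 for the targets and 0.11 for the receptors and Smads, against 0.14 for all clusters. The widest spreads were those of Msx2, Id4 and Msx1 among KO replicates 1 to 10 (SD 0.62, 0.56 and 0.50), where the same genes had SDs of 0.38, 0.26 and 0.36 among WT arrays. The narrowest were those of Smad5 among KO replicates 1 to 10 (0.05) and Tgfbr1 among WT arrays (0.07).

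**Figure D3:**
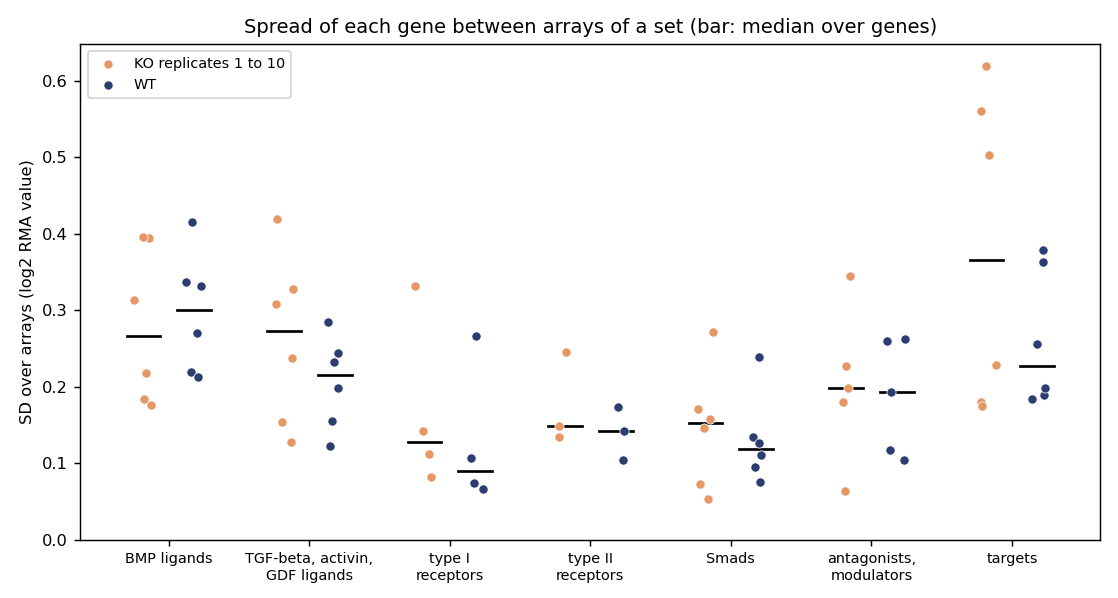
SD of each gene's log2 RMA value over the arrays of a set (points), by role, with KO replicates 1 to 10 on the left and WT on the right of each pair and the median over genes as a bar. By their medians ligands and targets spread more widely than receptors and Smads, and the highest points are Msx2, Id4 and Msx1 in KO replicates 1 to 10.

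Whether ligands and targets varied together was asked within each set, where a difference between the means of sets plays no part. For Bmp4 and Bmp7 each against Id1 to Id4, Msx1, Msx2, Smad6, Smad7 and Bambi (18 pairs), 2 pairs passed adjustment over the 18 among KO replicates 1 to 10, and none did among the WT arrays (lowest adjusted p = 0.595, 1 pair at an unadjusted permutation p below 0.05). Among KO replicates 1 to 10 Msx1 was lower where Bmp7 was higher (r = -0.94, permutation p = 6e-05, rho = -0.93, permutation p = 0.00037, n = 10), with an adjusted p of 0.00108. The same held for Msx2 (r = -0.91, permutation p = 0.00039, rho = -0.96, permutation p = 7e-05), with an adjusted p of 0.00351. Without the 2 arrays farthest from the Bmp7 median, r was -0.90 and -0.92. Markers of surface and oral ectoderm varied along with these genes on the same arrays, their average having r = 0.58 with Bmp7 (permutation p = 0.0802, rho = 0.56), r = -0.67 with Msx1 (permutation p = 0.0354, rho = -0.67) and r = -0.50 with Msx2 (permutation p = 0.145, rho = -0.54), none past adjustment (adjusted p from 0.311 to 0.444). That average was highest on KO replicates 9 and 10 (6.36 and 6.32), where Bmp7 was highest, and lowest on KO replicate 6 (5.30), where Bmp7 was lowest. Without the 2 arrays farthest from the median of the gene, r was 0.14 for Bmp7, -0.37 for Msx1 and -0.44 for Msx2. Ectoderm was not the only list to vary with these genes. On the same arrays neuroepithelial markers had r = -0.58 with Bmp7 (permutation p = 0.0793) and 0.60 with Msx2 (permutation p = 0.0685). Roof plate markers had r = 0.54 with Msx1 there (permutation p = 0.102). Among WT arrays they had r = 0.65 with Msx1 (permutation p = 0.021) and 0.62 with Msx2 (permutation p = 0.0312). Macrophage markers had similar values on those WT arrays, r = 0.62 with Msx1 (permutation p = 0.0339) and 0.57 with Msx2 (permutation p = 0.0482). None of these passed adjustment. The part of these tissues in the Bmp7 and Msx pairs was not tested.

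Among the WT arrays the same pairs had r = -0.12 (permutation p = 0.712, rho = -0.11, permutation p = 0.734, n = 12) and r = -0.24 (permutation p = 0.465, rho = -0.24, permutation p = 0.458). Without the 2 WT arrays farthest from the Bmp7 median these turned to 0.51 and 0.34. The difference between the sets was not tested. Bmp7 and Id1 had r = 0.76 among KO replicates 1 to 10 (permutation p = 0.0107, adjusted p = 0.0641, rho = 0.72) and r = -0.12 among WT arrays (permutation p = 0.716, rho = 0.03). Bmp7 and Id4 ran against each other in both sets, with r = -0.40 among KO replicates 1 to 10 (permutation p = 0.251, rho = -0.50) and r = -0.59 among WT arrays (permutation p = 0.039, rho = -0.59), neither past adjustment (adjusted p = 0.675 and 0.595). No pair with Bmp4 passed in either set, the lowest unadjusted Pearson p being that of Bambi among KO replicates 1 to 10 (r = 0.62, permutation p = 0.0561, rho = 0.59, adjusted p = 0.253).

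Of the 666 pairs that the 37 genes make, 13 had r above 0.6 in both sets and 4 had r below -0.6 in both. Picked for its size, and so given without a p, the pair Msx1 and Msx2 had r = 0.92 (rho = 0.96) among KO replicates 1 to 10 and r = 0.83 (rho = 0.87) among WT arrays. Bmp7 and Tgfb3, picked in the same way, had r = 0.76 (rho = 0.60) among KO replicates 1 to 10 and r = 0.71 (rho = 0.75) among WT arrays. Without the 2 arrays farthest from the Bmp7 median the second pair had r = 0.69 among KO replicates 1 to 10 and r = 0.50 among WT arrays.

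**Figure D4:**
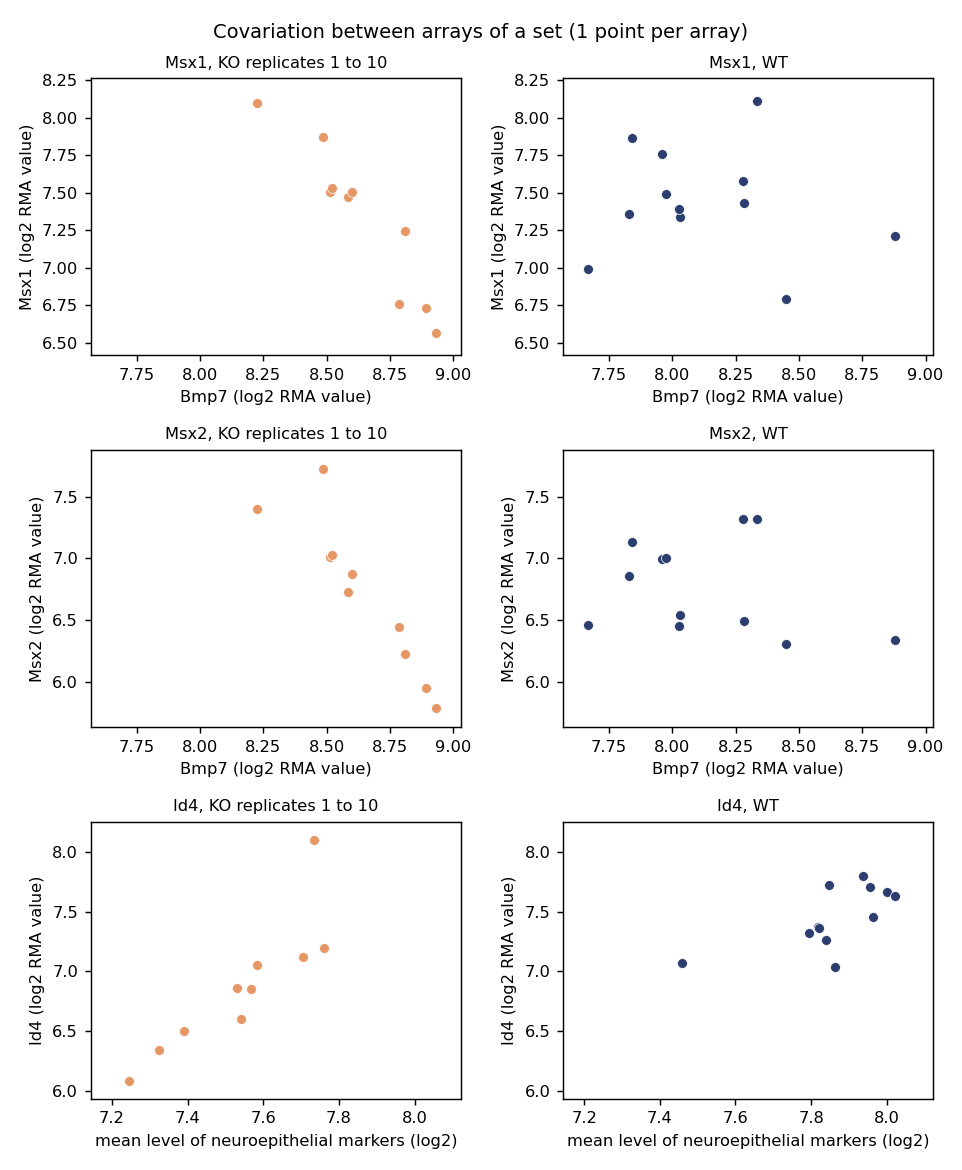
Msx1 and Msx2 against Bmp7, and Id4 against the mean level of 11 neuroepithelial markers, 1 point per array, log2 RMA values, with KO replicates 1 to 10 on the left and WT on the right. Msx1 and Msx2 decline with Bmp7 on the left (r = -0.94 and -0.91) and show no such line on the right (r = -0.12 and -0.24), and Id4 is higher where the markers are higher in both (r = 0.87 and 0.67).

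In dissected tissue, fewer cells of a type and less RNA per cell cannot be told apart, and the levels of several lists of cell type markers are therefore given beside these genes. The 11 markers of mammillary and hypothalamic neuroepithelium averaged 7.48 to 7.63 on KO replicates 11 to 13 and 7.46 to 8.02 on WT arrays. Without WT replicate 10 the WT range was 7.80 to 8.02, hence above all of KO replicates 11 to 13. WT replicate 10 was the only WT array not above them, so leaving it out separates the sets fully. That separation is therefore not read as added evidence. Of the 11 markers, 9 had a difference below 0, and Rax and Foxb2 had the largest (-1.27 and -1.13). Pax6 differed by -0.73, Nes by -0.03 and Sim1 by 0.33. The paper lists Rax and Foxb2 as lowered in the mutant, so this average is not a measure of tissue content alone. Id4 followed that average among KO replicates 1 to 10 (r = 0.87, permutation p = 0.00043, rho = 0.95, permutation p = 0.00016, n = 10, adjusted p = 0.0211 over 49 pairs of genes and lists). Among WT arrays the values were r = 0.67 (permutation p = 0.00872, rho = 0.56, permutation p = 0.0638, n = 12, adjusted p = 0.311). Without the 2 arrays farthest from the Id4 median r was 0.94 among KO replicates 1 to 10 and 0.80 among WT arrays. The same average had r = -0.58 with Bmp7 among KO replicates 1 to 10 (permutation p = 0.0793, rho = -0.44) and r = -0.62 among WT arrays (permutation p = 0.0436, rho = -0.34), where it was -0.22 without the 2 arrays farthest from the Bmp7 median. Id4 did not vary with the neuroepithelial list alone. Among WT arrays it had r = -0.61 with endothelial markers (permutation p = 0.0153, rho = -0.73, permutation p = 0.00919, adjusted p = 0.311). Among KO replicates 1 to 10 that r was -0.11 (permutation p = 0.773).

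Markers of tissue next to the neuroepithelium were read in the same way. The 11 markers of cranial mesenchyme and neural crest averaged 7.27 to 7.74 on KO replicates 11 to 13 and 6.87 to 7.66 on WT arrays, with 10 of 11 differences above 0. The 8 markers of surface and oral ectoderm averaged 5.61 to 6.14 on KO replicates 11 to 13 and 5.27 to 6.03 on WT arrays, and the 6 endothelial markers 7.56 to 7.93 on KO replicates 11 to 13 and 6.88 to 7.75 on WT arrays, with every difference above 0 in both lists. The endothelial average was 6.88 on WT replicate 11 and 7.46 to 7.75 on the other WT arrays, so that this array stood apart there. The 4 erythroid markers averaged 10.9 to 11.2 on KO replicates 11 to 13 and 10.4 to 11.5 on WT arrays, and the 4 macrophage markers 4.64 to 5.01 on KO replicates 11 to 13 and 4.02 to 4.99 on WT arrays. The 5 roof plate markers averaged 4.68 to 5.17 on KO replicates 11 to 13 and 4.71 to 5.82 on WT arrays. None of these markers was called with the term for KO replicates 1 to 10. Dim in WT, below the median of all clusters, were 3 of the 5 roof plate markers, 2 of the 4 macrophage markers and 1 each of the mesenchymal and ectodermal lists. The part of these tissues in the ligand and target differences was not tested.

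Beyond the 38 genes the pathway was read through a wider list. Of 75 other genes (further ligands, coreceptors, latency proteins, antagonists, Smad regulators), 68 had a cluster of their own, and none was called (limma). Their median difference was 0.03, with 40 above 0. Unadjusted, 5 of the 68 were higher in KO and 1 lower at p below 0.05, against 6.2% and 4.15% of all clusters. Those not dim were Acvrl1, an endothelial BMP type I receptor (0.38 ± 0.18 SE, adjusted p = 0.469), and Tgfbr3, the betaglycan coreceptor that presents TGF-betas (0.34 ± 0.16, adjusted p = 0.466). The others, Nodal, Inhbc, Nrros and Hjv, had WT means between 3.06 and 3.88, below the median of all clusters, where a change is hard to read. Genotype alone called 10 of the 68 in the higher direction, against 9.68% of all clusters, and 1 in the lower, against 6.99%. The added genes were Smad3, the TGF-beta branch Smad (0.10 ± 0.05), the BMP coreceptor Rgma (0.28 ± 0.16), the matrix gene Ccn2 (0.22 ± 0.12) and the antagonists Chrdl1 (0.12 ± 0.07) and Sost (0.20 ± 0.11), the last of which was dim, with a WT mean of 3.30.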

How the data were processed

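Total RNA of the dissected tissue was read on whole-transcript arrays of the type Mouse Gene 1.1 ST (Affymetrix). The authors deposited log2 values made by RMA, and the submitters' processing notes name affy, R 2.7.0 and Affymetrix Expression Console 1.0. An adjustment between batches is not given in the sources used here. Further, 11 of the 25 deposited columns held cells with lost decimal points, and 10 of these were read as a score until such cells were removed: 14 cells above 14 (32.32 to 10464) were set missing, none of them in the 37 genes. Of 35556 rows, 6616 with identifiers below the first annotated one were left out and 28940 were tested, of which 21218 had 1 gene symbol and 5841 none. Genes were matched to GRCm38.p6 by Entrez number. 

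The fits were made in limma 3.58.1, run in R 4.3.3, with genotype and a term for KO replicates 1 to 10, two-sided, and adjusted over all clusters. Exact permutation tests compared KO replicates 11 to 13 with WT over 455 splits. Correlations used 100000 permutations, two-sided. Alternatives were genotype alone, the 15 arrays without KO replicates 1 to 10, the replicate block, another normalization, filters, weights, embryo sex as a covariate and each array left out. Fits and exact tests were tested on simulated data. Python 3.11.15 and matplotlib 3.10.9 were used.

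The genes and lists were chosen with earlier results of these data known. Values by array are given for genes called by either fit, genes with p below 0.05 in the fit or the exact test, and the gene of each role with the smallest p. Replicate numbers of KO and WT arrays were not treated as pairs. The number of arrays limits the precision, and the depth of a library has no counterpart here. The p-values measure the spread between these samples.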

Additional observations from a re-analysis of the deposited data

How the results depend on the processing

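The count of BMP and TGF-beta genes called was 0 in the fit used and 0 under 9 of the alternatives and with every array left out in turn (0 to 0). By adjusted p these alternatives called few clusters in the whole table, at most 30 (0.104%, array weights). With an array left out, the whole table had from 0 calls (without KO replicate 13) to 26 (without WT replicate 10). A count of 0 for these genes is therefore close to the share of all clusters. The count of these genes was 6 with genotype alone (16.7% of all clusters called), 6 with genotype alone unmoderated (15.9%), 6 with the replicate block on genotype alone (12.6%), where Tgfb1 was called and Twsg1 was not, and 3 at an unadjusted p below 0.05 (10.3%). With the replicate block and the term for KO replicates 1 to 10 it was 0. Replicate numbers do not pair the arrays (r from -0.33 to 0.43 over 12 pairs, 4 above 0.1), so a call lost under the block is not read as a weaker effect. The other pathway genes had 11 of 68 calls with genotype alone, 6 at an unadjusted p below 0.05 (16.7% and 10.3% of all clusters) and 0 with each array left out. The exact test passed between 1 and 7 genes with arrays left out, 7 after repeated quantile normalization and 5 after centring. The share of all clusters that passed under these settings is not given here. These counts are therefore not read as a result about the pathway genes. Ligand and target pairs passing were 0 among WT arrays, also by Spearman, without 2 arrays and after repeated normalization, and 2 in KO replicates 1 to 10, where repeated normalization was not run.

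No difference changed sign while called. Of 401 other values of single genes 31 had the opposite sign. For Bmp7 it was -0.051 on the dimmer cluster. Repeated quantile normalization gave 0.011 for Bmp1, -0.013 for Inhbb, 0.0062 for Smad5 and 0.020 for Id1. Array weights gave 0.012 for Bmp1, 0.050 for Smad9, 0.056 for Grem1, 0.022 for Bambi and 0.049 for Id1. The replicate block on genotype alone gave 0.0094 for Bmp1, 0.023 for Smad9, 0.020 for Grem1 and 0.0089 for Id1. The replicate block with the term gave 0.27 for Bmp1, 0.13 for Gdf11, 0.013 for Bmpr1a, 0.39 for Bmpr1b, 0.068 for Acvr1, 0.0089 for Smad1, 0.12 for Smad5, 0.31 for Smad9, 0.020 for Smad7, 0.036 for Nog, 0.39 for Grem1, 0.28 for Bambi, 0.079 for Twsg1, 0.0068 for Id1, -0.11 for Id3, 0.19 for Msx1 and 0.35 for Msx2. The cause was not tested.

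With each array left out, 21 of the 37 genes kept their sign throughout. By the term in the fit, each difference rests on 3 KO arrays and the WT arrays alone. Leaving out any other KO array therefore cannot change a difference, and only the remaining settings test the sign. The ranges of the other 16 were -0.18 to 0.044 for Bmp4, -0.022 to 0.21 for Bmp5, -0.039 to 0.061 for Bmp1, -0.094 to 0.0097 for Gdf11, -0.035 to 0.11 for Inhbb, -0.22 to 0.040 for Bmpr1b, -0.0072 to 0.091 for Bmpr2, -0.024 to 0.0062 for Smad5, -0.10 to 0.15 for Smad9, -0.077 to 0.029 for Smad4, -0.12 to 0.0019 for Smad6, -0.18 to 0.20 for Grem1, -0.14 to 0.13 for Bambi, -0.10 to 0.11 for Id1, -0.074 to 0.15 for Id3 and -0.22 to 0.064 for Msx2. Bmp6, Bmp7 and Id4 kept theirs, in 0.39 to 0.70, 0.44 to 0.57 and -0.85 to -0.42. The brightness of a cluster limits what it can show: 7 of the 37 genes were dim, below the median of all clusters. With 3 arrays taken to carry each difference, a gene not called is not shown to be unchanged.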
